A study of Mus musculus with 12 samples.

Results

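Gene expression in the female urogenital sinus was compared between 3 mutant libraries, whose genotype is Inv(Itga6-nsi)d11lac, and 3 wild type libraries, across all genes of the deposited table. These are 6 of the 12 libraries of the series, chosen by their labels, and the other 6 come from males of the same genotypes. All samples were taken at E18.5. The dissection left the bladder out and included the vagina and the proximal urethra, and RNA with a quality number (RIN) above 9.5 went into strand-specific single-end libraries of total RNA depleted of ribosomal RNA, per the labels. The genotype names an inversion from Itga6 to nsi and the allele d11lac, and the labels describe neither nsi nor d11lac. They do not say whether the mutants carried 1 or 2 copies of the inverted chromosome. Nor do they say that each library is a separate embryo, and the p-values below measure only how these libraries vary.

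Hox genes encode transcription factors that give positions along the body axis and the limbs their identity, and those at the posterior end of each cluster act in the digits, the genitalia and the end of the gut and urinary tract. The HoxD cluster is flanked on both sides by long stretches of enhancers that many of its genes share. An inversion can move such enhancers away from the genes or towards others without removing any DNA. The urogenital sinus is an epithelial tube wrapped in mesenchyme, from which the urethra and, with the Müllerian ducts, part of the vagina form.

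Values are scaled FPKM, that is, fragments of a gene per length and per library, divided by a factor for each library. Of 56495 genes, 13904 reached 1 FPKM in at least 3 libraries and were tested with limma over all 12 libraries on log2(scaled FPKM + 0.5). A gene is said to be called, or to have risen or fallen, where its Benjamini-Hochberg adjusted p over all genes tested was under 0.05. Every fold change is on this log2 scale, which understates changes of low genes. FPKM give no read counts. Relative depth, read from the steps between low values, was 0.807 to 1 in wild type females and 0.578 to 0.629 in mutant females, so that depth and genotype cannot be told apart. The X-silencing RNA Xist stood at 8.76, 8.91 and 10.5 in wild type and 9.93, 5.68 and 5.51 in mutant females, against means of 0.0925 and 0.0102 in wild type and mutant males, which matched the sex labels. Markers of neighbouring organs were mostly under the filter, with 1 of 10 intestinal, 2 of 10 kidney and 2 of 11 gonad and adrenal markers tested. The filter needs 3 libraries, so a marker present in fewer would not appear here. In such bulk tissue, fewer cells of a type and less RNA per cell cannot be told apart.

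A large part of the tested genes differed between the genotypes. Of the 13904 genes, 28% were called, with 1687 (12.1%) higher and 2208 (15.9%) lower in mutant females. Most differences were small, since 96 of the called genes were at least 2-fold higher and 207 at least 2-fold lower. The 3 mutant and 3 wild type values did not overlap for 3820 of the called genes (98.1%) and for 42.6% of all genes tested. The balance of rises and falls depended on the scaling. Of the called genes, 43.3% were higher with the scaling used here, 13.9% with FPKM as deposited and 7.32% after scaling to the sum of FPKM, and those scalings moved the median of all genes from 0.00 to -0.08 and -0.21.

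The called genes sorted by base composition. GC content, the share of G and C in the longest annotated transcript of a gene, was known for 13735 of the genes tested. In the decile of genes with the lowest GC content (31.0% to 41.4%), the median log2 fold change was -0.48, and 59.0% of the genes were called lower against 0.655% called higher. At the other end (58.0% to 78.3% GC), the median was 0.32, and 40.2% were called higher against 0.291% called lower. Between them the median moved up in every step, through -0.02 in the fifth decile and 0.04 in the sixth.

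The middle 90 bases of the coding sequences show what such transcripts look like. They are given for the 2 genes of lowest GC content among the largest falls named below and the 2 of highest GC content among the largest rises, from GENCODE M21 on GRCm38, 5′ to 3′, with G and C in capitals.
Arhgap5, coding bases 2209 to 2298: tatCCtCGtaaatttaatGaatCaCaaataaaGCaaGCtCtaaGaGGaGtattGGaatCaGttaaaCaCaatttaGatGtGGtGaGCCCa
Depdc1a, coding bases 1165 to 1254: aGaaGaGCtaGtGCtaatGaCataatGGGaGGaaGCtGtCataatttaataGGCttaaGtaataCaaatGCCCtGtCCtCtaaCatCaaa
Nrtn, coding bases 247 to 336: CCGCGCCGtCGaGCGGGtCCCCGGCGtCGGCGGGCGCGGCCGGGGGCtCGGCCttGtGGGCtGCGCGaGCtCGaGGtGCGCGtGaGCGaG
H2ac13, coding bases 151 to 240: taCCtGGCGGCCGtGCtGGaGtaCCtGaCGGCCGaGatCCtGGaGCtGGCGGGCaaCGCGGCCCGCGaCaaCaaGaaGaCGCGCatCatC
G and C make up 31 of the 90 bases in Arhgap5, 33 in Depdc1a, 74 in Nrtn and 60 in H2ac13. Over the whole transcripts the GC content was 33.9%, 35.3%, 72.8% and 70.0%.

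The trend set the mutant libraries apart from the wild type libraries. For every library, the deviation of each gene from the mean of the 12 libraries was fitted against GC content. The slopes are relative to that mean, so only differences between libraries can be read from them. The slope per 10 percentage points of GC was -0.17, -0.13 and -0.18 in wild type females 1 to 3 and 0.23, 0.24 and 0.24 in mutant females 1 to 3, on the log2 scale. The groups did not overlap and had means of 0.235 ± 0.0064 in mutant and -0.158 ± 0.0268 in wild type females (SD, n = 3). The difference of 0.39 had an exact permutation p of 0.1 (two-sided), the smallest that 3 against 3 libraries can give. With labels permuted within each sex, over all 12 libraries, the difference was 0.35 and the exact permutation p was 0.005, again the smallest the 400 regroupings allow. The male slopes differed in the same direction, at -0.21, -0.14 and -0.22 in wild type and 0.17, 0.12 and 0.05 in mutant libraries. For transcript length, with GC content in the same fit, the difference of mean slopes was 0.00 per 10-fold of length (exact permutation p = 1). The mutant slopes for length spread more, at -0.21, -0.03 and 0.03 against -0.09, -0.09 and -0.04 in wild type females. Deciles by length took no account of GC content. From the shortest to the longest transcripts their median log2 fold change went from 0.12 to -0.08. The share called lower went from 7.19% to 20.6%. Relative depth moved with the GC slope, and its part in the trend was not tested.

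**Figure D1:**
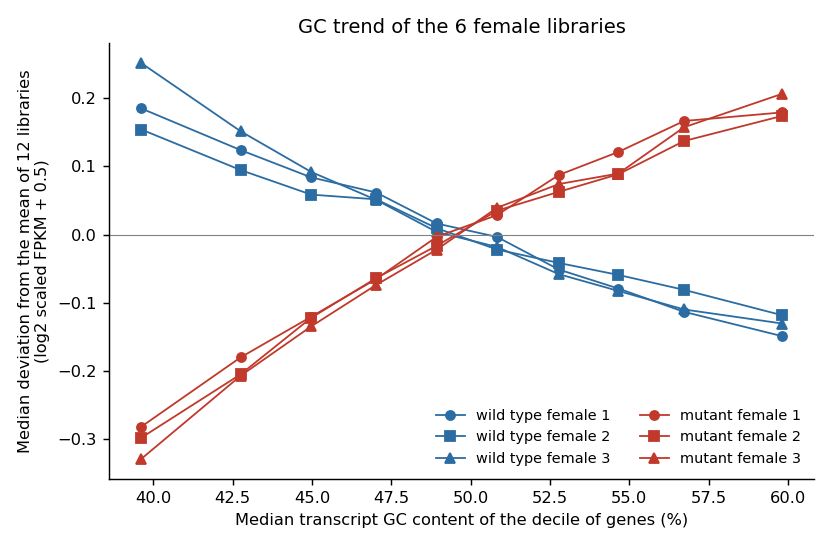
Median deviation of genes from the mean of the 12 libraries (y axis, log2 of scaled FPKM + 0.5) against the median transcript GC content of each decile of genes (x axis, percent) in the 3 wild type and 3 mutant female libraries. The mutant libraries lie at -0.33 to -0.28 in the lowest decile and at 0.17 to 0.21 in the highest. Relative to that mean the wild type libraries run the other way, and the lines cross near the middle.

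A fit that removed a smooth trend with GC content and length from each library left fewer calls. After this correction 7.84% of 13735 genes were called, 584 higher (4.25%) and 493 lower (3.59%), with 37 and 47 of them at least 2-fold. The medians of all deciles then lay between -0.01 and 0.03. Among genes called before, 334 remained called higher and 440 called lower, 8 were called in the opposite direction, and 295 genes were called only after the correction. Called genes were then most frequent in the lowest decile, at 9.39% higher and 10.7% lower, against 2.55% and 1.53% in the highest. By its construction the correction also takes out any difference of the tissue that follows GC content or length.

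**Figure D2:**
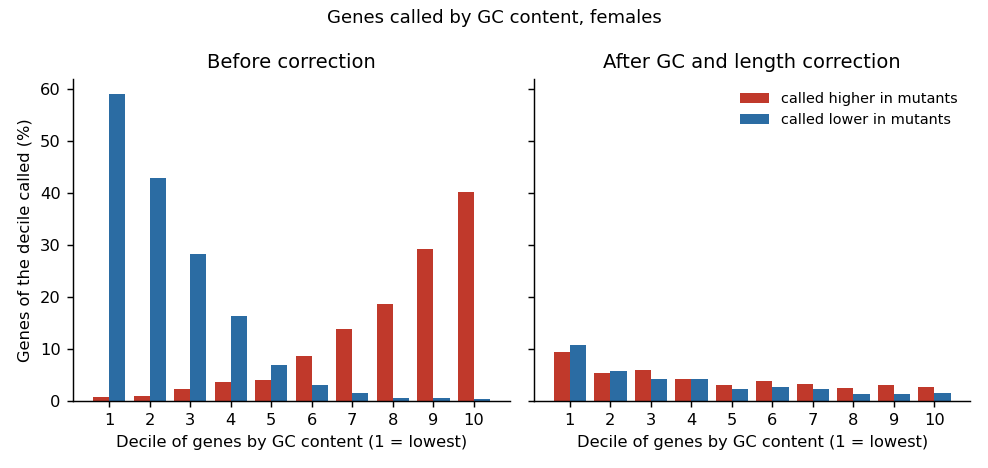
Percentage of genes called higher or lower in mutant females (y axis) in deciles of genes by GC content (x axis, 1 is the lowest), before (left) and after (right) the GC and length correction. Before it, 59.0% of the lowest decile are called lower and 40.2% of the highest called higher. After it, no bar passes 10.7%.

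The X chromosome and chromosome 13 had the largest shares of called genes. On the X, 35.7% of 476 genes were called, 14 higher and 156 lower, with a median of -0.25. The genes there had a median GC content of 45.6% against 49.9% over all genes tested, and after the correction their median was -0.07 and 8.19% were called. On chromosome 13, 34.0% of 556 genes were called, and 12.9% after the correction.

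The mutant libraries differed more among themselves than the wild type libraries did, a description for which no test was run. The SD of a gene over the 3 libraries of a group had a median of 0.186 on the log2 scale in mutant females, 0.098 in wild type females, 0.117 in wild type males and 0.12 in mutant males. It was larger in mutant than in wild type females for 76.4% of the genes, and larger in mutant than in wild type males for 50.9%. A range of more than 2-fold within the group was found for 1299 genes in mutant females, 191 in wild type females, 389 in wild type males and 381 in mutant males. The larger spread was present at each level, with medians of 0.235 against 0.132 at 1 to 5 scaled FPKM and 0.147 against 0.0686 at 50 or more. The GC and length correction left it in place, at 0.183 against 0.0947.

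The 3 mutant females stood apart from each other. In a principal component analysis of the 6 libraries, component 1 (48.9% of the variance) placed the wild type libraries between -28.3 and -21.4 and mutant females 1, 2 and 3 at 32.2, 10.2 and 33.2, so that mutant female 2 was the mutant nearest to wild type. After the GC and length correction mutant female 2 was at -1.11 on component 1, against 31.8 and 25.97 for mutant females 1 and 3 and -21.5 to -15.9 in wild type. Component 2 (25.8%) placed mutant female 1 at 34.2, mutant female 2 at -2.81 and mutant female 3 at -32.0, with the wild type libraries between -0.91 and 1.04. Mutant female 1 was at least 2-fold above both other mutants for 202 genes and below both for 136. Mutant female 3 was above both for 33 and below both for 225. Mutant female 2 had 37 and 35 such genes. Against the mean of the wild type females, 528, 105 and 203 genes were at least 2-fold higher in mutant females 1, 2 and 3, and 450, 228 and 615 at least 2-fold lower.

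In mutant female 1 the epithelial lists were high and the mesenchymal list was low. The 25 tested genes of the list for basal and stratified epithelium had median log2 differences from the wild type mean of 1.22, 0.25 and 0.72 in mutant females 1 to 3. Their summed level was 2187, 1087 and 1403 scaled FPKM there and 794 to 941 in the wild type libraries. The 22 urothelial and simple epithelial genes had medians of 1.02, 0.12 and 0.25. The 19 mesenchymal genes had -0.77, 0.12 and 0.43, and 17 of the 19 were below all wild type libraries in mutant female 1. The 23 genes of fibrillar and other matrix had -0.57, 0.28 and 0.40. Mutant female 1 was thus high for epithelial and low for mesenchymal genes, while in mutant female 3 the medians of both kinds lay above the wild type mean.

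In mutant female 3 neuronal genes were low. All 25 tested neuronal genes were below the 3 wild type libraries in mutant female 3, and 24 of them were at least 2-fold below both other mutants. Their median difference from the wild type mean was -0.46, 0.25 and -2.49 in mutant females 1 to 3. The summed level was 473, 783 and 93.1 scaled FPKM in the mutants and 591 to 738 in the wild type libraries. The gene for gamma-synuclein, Sncg, which is abundant in peripheral neurons, gave 39.9, 39.6 and 42.5 in wild type and 31.3, 49.5 and 1.5 in mutant females. Markers of red blood cells spread as well, with medians of 0.48, -0.54 and -1.42. The part of these markers in the changes described below was not tested. Where the count of a list with at least 2 called genes moved by over 1.5 times without 1 female library, the counts without each library are given, in the uncorrected fit. The counts of all lists are to be read against 12.1% of all genes called higher and 15.9% called lower, and 4.25% and 3.59% after the correction, and a share near these is no result about a list.

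**Figure D3:**
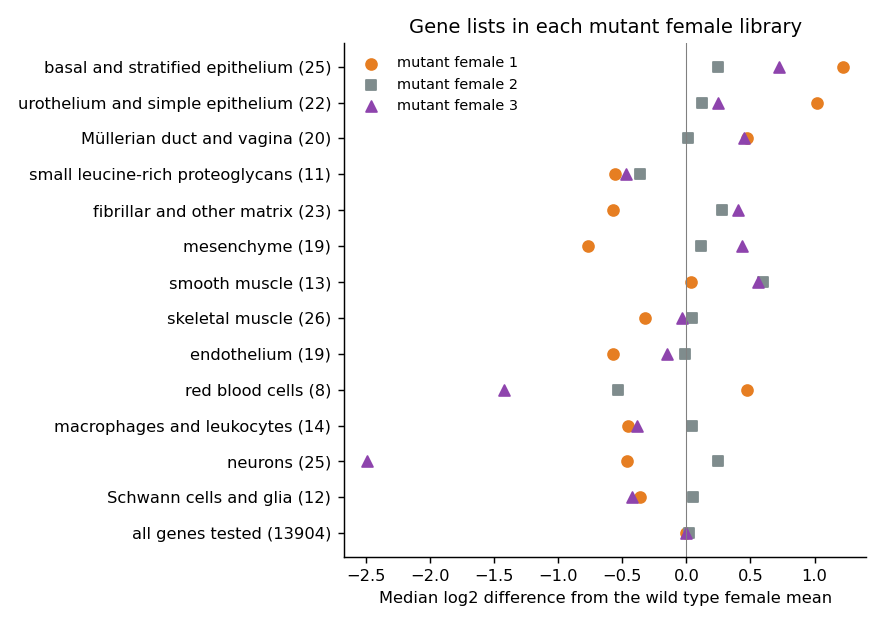
Median log2 difference from the wild type female mean (x axis) of the tested genes of 13 lists and of all genes tested (y axis, number of genes in parentheses) in mutant female 1 (circles), 2 (squares) and 3 (triangles). All genes tested sit near 0 in each library, neurons reach -2.49 in mutant female 3, and the epithelial lists reach 1.22 and 1.02 in mutant female 1.

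The genes with the largest SD over the mutant females, among those with a mean of at least 5 scaled FPKM there, were Rprl3, Eno1b, Rn18s-rs5, H4c17, Sncg, Rprl2, Apoa1 and Lars2. Many have copies that counting may not separate. Rn18s-rs5, a copy of the 18S ribosomal RNA, gave 16.2, 23.8 and 21.6 in wild type and 1174, 60.5 and 2559 in mutant females. Lars2, the leucyl-tRNA synthetase of mitochondria, gave 2.57, 2.73 and 2.11 in wild type against 29.5, 2.97 and 79.6 in mutant females, so that the same mutant libraries, 1 and 3, were high for both. Rprl3, a gene like the RNA of ribonuclease P, gave 586, 683 and 675 in wild type females against 1419, 1491 and 4.91 in mutants, where library 3 alone was low. Its relative Rprl2 gave 4.83, 6.39 and 9.14 against 9.0, 7.84 and 0. The histone gene H4c17 gave 23.2, 11.4 and 25.4 against 0.114, 16.7 and 0.118. Eno1b, an enolase gene, gave 18.1, 0.018 and 17.9 against 0, 30.02 and 0, with a low value in a wild type library too. Apoa1, an apolipoprotein of liver and intestine, gave 0.143, 0.273 and 0.192 against 18.1, 0.264 and 1.74 and was the 1 intestinal marker tested. Lars2 was the only called gene of these 8 (log2 fold change 2.78, SE 0.87, adjusted p = 0.0352), and the call was lost when any 1 of 5 of the 6 female libraries was left out.

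Posterior HoxD genes fell and rose side by side. Hoxd13, the last gene of the cluster, gave 17.3, 16.1 and 20.4 scaled FPKM in wild type females 1 to 3 and 3.15, 4.71 and 5.64 in mutant females 1 to 3. Hoxd12 gave 8.21, 7.7 and 10.4 against 1.5, 1.49 and 3.03. Neither gene's groups overlapped, and the log2 fold changes were -1.91 (SE 0.20, adjusted p = 0.00038) for Hoxd13 and -1.93 (SE 0.22, adjusted p = 0.000547) for Hoxd12. Hoxd11, the next gene, went the other way, with 3.3, 3.0 and 3.1 in wild type and 4.24, 9.01 and 10.8 in mutant females, where library 1 was the lowest. Hoxd10 gave 4.25, 3.94 and 4.18 against 1.86, 1.8 and 1.2. Their fold changes were 1.14 (SE 0.26, adjusted p = 0.00829) and -1.14 (SE 0.14, adjusted p = 0.000676). All 4 of these calls held after the GC and length correction, at -1.81 (adjusted p = 0.00189) for Hoxd13, -2.08 (adjusted p = 0.00147) for Hoxd12, 1.48 (adjusted p = 0.0099) for Hoxd11 and -0.96 (adjusted p = 0.00363) for Hoxd10. Only the mutant genotype names the allele d11lac, which the labels do not describe. Whether that allele alters Hoxd11 itself was not tested, so the groups may not share the same Hoxd11 locus.

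Of the 14 listed genes of the cluster and its edges, 11 were tested, 2 rose and 5 fell, and after the correction 2 rose and 4 fell. The rises of this list numbered 1, 1 and 1 without wild type female 1, 2 and 3, and 2, 2 and 2 without mutant female 1, 2 and 3. The median of the 11 was 0.00. Besides the 4 above, the antisense RNA Hoxd3os1 rose, from 0.914, 1.19 and 1.08 to 2.37, 1.69 and 1.64 (log2 fold change 0.61, SE 0.19, adjusted p = 0.0314), at levels where the strand setting of the counting matters and is not given in the sources used here. Mtx2, a gene of mitochondrial import at the anterior edge, fell from 11.6, 10.6 and 11.7 to 8.44, 7.59 and 7.04 (log2 fold change -0.53, SE 0.08, adjusted p = 0.0013), and by less after the correction (-0.26, adjusted p = 0.0412). Lnpk, an endoplasmic reticulum gene beyond Evx2 with a GC content of 36.2%, gave 7.49, 7.53 and 8.92 against 4.93, 6.85 and 5.94. Its log2 fold change was -0.41 (SE 0.12, adjusted p = 0.0292) and turned to 0.31 (adjusted p = 0.114) after the correction. Evx2, Hoxd4 and Hoxd8 were not called, with log2 fold changes of 0.51, 0.25 and 0.04, and neither was Hoxd9, with 1.76, 1.72 and 1.23 against 2.1, 1.19 and 1.47. Evx2 spread widely in the mutants, at 1.77, 2.81 and 4.35 against 1.68, 1.82 and 1.99 in wild type.

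Along the segment between Itga6 and Evx2, 17 genes were tested, 0 rose and 6 fell, and after the correction 0 rose and 0 fell. Their median was -0.25 before and -0.04 after it, and their median GC content was 45.9%. The transcription factor Sp3 gave 33.1, 33.5 and 36 in wild type and 20.3, 22.3 and 22.4 in mutant females (log2 fold change -0.65, SE 0.07, adjusted p = 0.000548, after the correction -0.17, adjusted p = 0.134). Ola1, an ATPase, gave 28.6, 27.2 and 31.2 against 19.3, 20.3 and 18.7 (log2 fold change -0.56, SE 0.09, adjusted p = 0.00126, then -0.23, adjusted p = 0.111). Atf2 and Rapgef4 had log2 fold changes of -0.54 (SE 0.10, adjusted p = 0.00271) and -0.54 (SE 0.17, adjusted p = 0.0312), then -0.09 (adjusted p = 0.609) and -0.38 (adjusted p = 0.162). The falls numbered 3, 3 and 3 without wild type female 1, 2 and 3, and 5, 7 and 3 without mutant female 1, 2 and 3. Among 8 posterior genes of the other Hox clusters, 2 rose, Hoxa11 (12.2, 11.3 and 8.84 to 15.7, 12.8 and 17.2, log2 fold change 0.48, SE 0.14, adjusted p = 0.0289) and Hoxa9 (3.12, 3.55 and 4.02 to 4.82, 4.58 and 5.25, log2 fold change 0.41, SE 0.10, adjusted p = 0.0102), and Hoxa9 stayed called after the correction (0.41, adjusted p = 0.0311). The count was 2, 1 and 1 without wild type female 1, 2 and 3, and 1, 3 and 1 without mutant female 1, 2 and 3.

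**Figure D4:**
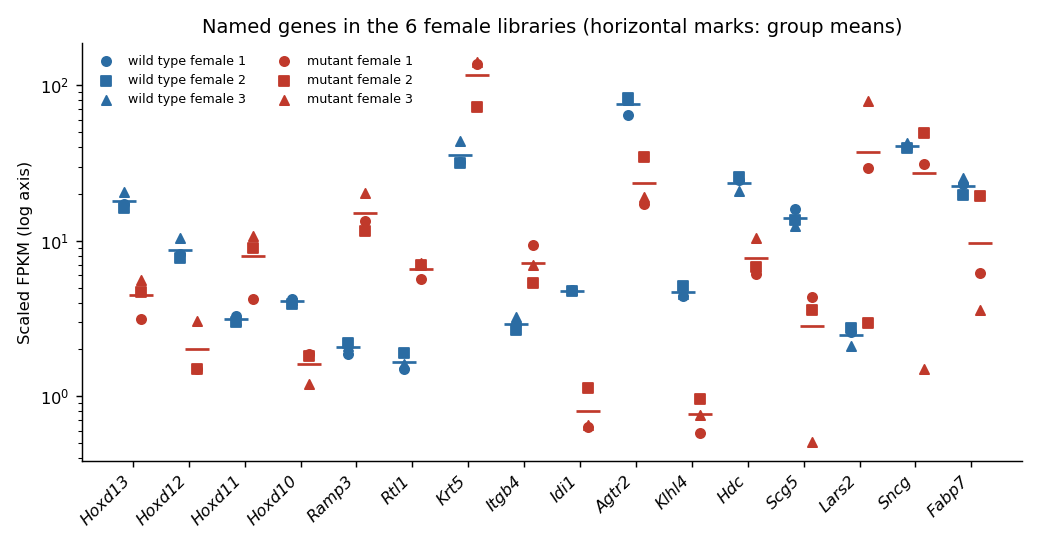
Scaled FPKM (y axis, log scale) of 16 genes in the 3 wild type and 3 mutant female libraries, with 1 symbol for each replicate number and horizontal marks at the group means. Hoxd13, Hoxd12, Hoxd10, Idi1, Agtr2, Klhl4 and Hdc separate downwards and Hoxd11, Ramp3, Rtl1, Krt5 and Itgb4 upwards, while Scg5, Lars2, Sncg and Fabp7 spread most among the mutants.

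In the uncorrected fit, most of the calls on named genes did not rest on 1 library. These genes were chosen from the same libraries, many for large changes without overlap, which favours keeping a call. The share over all called genes was not computed. With the GC and length correction and all libraries, 55 of the 112 lost the call. Of the 112 named genes that were called, 73 kept the call when any 1 of the 6 female libraries was left out, and 39 lost it for at least 1. Leaving out wild type female 1, 2 or 3 ended 35, 29 and 30 of the calls, and leaving out mutant female 1, 2 or 3 ended 24, 6 and 21. Those that lost the call without at least 1 library included Aspn, Begain, Boc, Calcrl, Cebpa, Cx3cr1, Cyp2f2, Dcn, Emcn, Fabp7, Fgfr3, Foxa2, Gnas, H4c9, Hoxa11, Hoxd3os1, Klf4, Krt17, Lars2, Lnpk, Lum, Msmo1, Mstn, Msx2, Neb, Postn, Prrx1, Rapgef4, Rbm38, Rbm47, Rps2, Slc38a4, Slc5a7, Smad6, Tfrc, Wnt11, Wnt7a and Zbtb16. Mstn lost it without any 1 of the 6.

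The largest rises and falls that held with and without the correction, with groups that did not overlap, are described next. C1s1 (ENSMUSG00000038521, chromosome 6, 124507304 to 124519318 in mm39), a serine protease of the complement system with a close relative beside it, was listed at 0 in wild type females 1 and 2 and at 0.0114 in wild type female 3, and gave 2.79, 3.06 and 2.89 in mutant females. In males it gave 8.58, 4.45 and 2.5 in wild type and 2.34, 3.5 and 2.2 in mutant libraries, where the groups overlapped. An exact 0 can be a failed estimate in such tables, and its fitted difference of 2.76 depends on the pseudocount. Ramp3 (ENSMUSG00000041046, chromosome 11, 6608521 to 6627475 in mm39), which joins the calcitonin receptor-like receptor to form a receptor for adrenomedullin, gave 1.87, 2.22 and 2.1 in wild type and 13.4, 11.6 and 20.2 in mutant females. All 3 mutants were several-fold above the wild type range, with a log2 fold change of 2.57 (SE 0.22, adjusted p = 0.000352) and 2.42 (adjusted p = 0.000749) after the correction.

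Rtl1 (ENSMUSG00000085925, chromosome 12, 109555627 to 109566764 in mm39), an imprinted gene of the Dlk1-Dio3 domain that came from a retrotransposon and serves the placental vessels and muscle, gave 1.49, 1.9 and 1.62 against 5.66, 6.98 and 7.22. Its log2 fold change was 1.71 (SE 0.11, adjusted p = 0.000118), with the smallest SE among these largest rises. The corrected value was 1.51 (adjusted p = 0.000185). Antisense transcripts run through Rtl1, and reads of the 2 strands cannot be told apart where the strand setting of the counting is not given. Of the 7 tested genes of the domain, 2 rose, Rtl1 and Begain (log2 fold change 0.55, SE 0.19, adjusted p = 0.0496), and the median was 0.11. The rises there numbered 1, 2 and 1 without wild type female 1, 2 and 3, and 1, 1 and 1 without mutant female 1, 2 and 3. Nrtn, the neurturin gene, whose product supports pelvic autonomic neurons, gave 2.76, 3.01 and 2.62 against 8.46, 6.36 and 8.49 (log2 fold change 1.32, SE 0.16, adjusted p = 0.000598). With 72.8% GC, its corrected value was 0.80 (adjusted p = 0.0129).

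Other rises were epithelial. Krt5 (ENSMUSG00000061527, chromosome 15, 101615505 to 101621333 in mm39), the keratin of basal cells, gave 32.3, 31.6 and 43.7 in wild type and 138, 72.1 and 140.5 in mutant females, with mutant female 2 the lowest mutant (log2 fold change 1.64, SE 0.31, adjusted p = 0.0033, after the correction 1.42, adjusted p = 0.0205). Itgb4, the integrin chain of hemidesmosomes that pairs with the product of Itga6, gave 2.91, 2.66 and 3.22 against 9.38, 5.33 and 6.98 (log2 fold change 1.14, SE 0.16, adjusted p = 0.00105). Lgals7, a galectin of stratified epithelia, gave 8.06, 7.56 and 8.42 against 26.1, 15.5 and 21.4 (log2 fold change 1.31, SE 0.19, adjusted p = 0.00109). Spint2, an inhibitor of epithelial surface proteases, gave 34.2, 40.9 and 44.3 against 149.7, 71.8 and 84.1, and the gene Arhgef19 gave 4.18, 5.07 and 3.58 against 13.5, 8.52 and 9.3. Mutant female 1 was the highest mutant for Itgb4, Lgals7, Spint2 and Arhgef19.

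As a group, 11 of the 25 tested basal and stratified epithelial genes rose and 0 fell, against 12.1% and 15.9% of all genes tested. Their median was 0.64 against 0.00 for all genes. After the correction 4 rose, with a median of 0.58. Krt14, the partner of Krt5, gave 29.2, 23.8 and 23.9 against 80.4, 39 and 51.7 (log2 fold change 1.08, SE 0.24, adjusted p = 0.00709), and Krt17 gave 39.6, 35.7 and 32.9 against 191, 56 and 81.6 (log2 fold change 1.40, SE 0.37, adjusted p = 0.0179, after the correction 1.16, adjusted p = 0.0752). The rises of the basal list numbered 7, 7 and 8 without wild type female 1, 2 and 3, and 7, 14 and 8 without mutant female 1, 2 and 3, with 1 fall in the last. They numbered 5 with FPKM as deposited and 7 after scaling to the sum, and 0 with the correction and without wild type female 1 or 2. Of 22 urothelial and simple epithelial genes, 2 rose before and after the correction, among them Cdh1, or E-cadherin (16.2, 14.4 and 21.1 to 49.6, 24.9 and 32, log2 fold change 0.98, SE 0.23, adjusted p = 0.0108). The other was Gata3, a transcription factor of the urothelium (6.0, 5.57 and 7.37 to 8.15, 9.87 and 10.1, log2 fold change 0.54, SE 0.11, adjusted p = 0.00524). Before the correction that count was below the 12.1% of all genes called higher, and after it the same count stood against 4.25%. In the uncorrected fit it was 2, 2 and 2 without wild type female 1, 2 and 3, and 3, 8 and 3 without mutant female 1, 2 and 3. Tgm1, an enzyme that cross-links the cornified envelope, rose by 1.09 and was not called after the correction (0.86, adjusted p = 0.0633).

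Of 20 tested genes of the Müllerian ducts and vagina, 6 rose and 0 fell, against 12.1% and 15.9% of all genes, with a median of 0.31. After the correction 2 rose, against 4.25% of all genes. Sox17, a transcription factor of the endoderm and the Müllerian tract, gave 13, 13 and 7.83 against 31.9, 16.7 and 21.5 (log2 fold change 1.00, SE 0.23, adjusted p = 0.00898). Wnt7a, a signal of the Müllerian epithelium, gave 8.5, 8.04 and 7.19 against 22.7, 9.34 and 14.8 (log2 fold change 0.85, SE 0.26, adjusted p = 0.0299). Foxa2 gave 1.78, 2.59 and 1.68 against 7.35, 3.4 and 2.9, and Msx2 11.9, 12.1 and 9.43 against 30.00, 12.9 and 16.9. In each of these 4 genes mutant female 1 was the highest, the library that was also high in epithelial genes. The rises of these 20 genes numbered 2, 3 and 2 without wild type female 1, 2 and 3, and 2, 9 and 4 without mutant female 1, 2 and 3, so that leaving out a library of either genotype could lower the count. They numbered 1 with FPKM as deposited and 1 after scaling to the sum. Among 11 hormone receptor and androgen response genes 1 rose, Zbtb16 (0.339, 0.338 and 0.703 to 1.74, 1.04 and 0.884, log2 fold change 0.83, SE 0.23, adjusted p = 0.0222).

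The largest falls that held after the correction included receptors, enzymes and a chaperone. Klhl4 (ENSMUSG00000025597, chromosome X, 113384030 to 113470526 in mm39), a Kelch-like gene on the X chromosome, gave 4.44, 5.08 and 4.54 in wild type and 0.581, 0.964 and 0.757 in mutant females (log2 fold change -2.04, SE 0.24, adjusted p = 0.000598, after the correction -1.51, adjusted p = 0.00426). Agtr2 (ENSMUSG00000068122, chromosome X, 21350783 to 21355403 in mm39), the type 2 receptor of angiotensin, abundant in fetal mesenchyme, gave 64.7, 83.1 and 81 against 17.3, 34.6 and 19.2 (log2 fold change -1.73, SE 0.25, adjusted p = 0.00109, then -1.20, adjusted p = 0.0132). Mutant female 2 was the highest mutant for both. Hdc (ENSMUSG00000027360, chromosome 2, 126435587 to 126460598 in mm39), which makes histamine from histidine, gave 24.5, 25.8 and 20.8 against 6.14, 6.75 and 10.4 (log2 fold change -1.58, SE 0.21, adjusted p = 0.000732, then -1.53, adjusted p = 0.00352). Aplnr, the apelin receptor of endothelium, gave 22.1, 20.5 and 12.8 against 4.71, 7.43 and 4.62 (log2 fold change -1.63, SE 0.32, adjusted p = 0.00397, then -1.69, adjusted p = 0.0115).

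Scg5 (ENSMUSG00000023236, chromosome 2, 113606707 to 113659466 in mm39), a chaperone of neuropeptide-processing enzymes, was the 1 gene called of the 25 tested on the neuronal list, with 16, 13.6 and 12.5 in wild type and 4.36, 3.62 and 0.511 in mutant females (log2 fold change -2.41, SE 0.49, adjusted p = 0.00501, then -2.29, adjusted p = 0.0157). All 3 mutants were below the wild type range, and mutant female 3, the library with low neuronal genes, was the lowest. The neuronal list had a median of -0.84, which became -0.14 without mutant female 3. Without mutant female 2, 19 of the 25 were called lower. Slc5a7, the choline transporter of cholinergic neurons, is not on that list and was named among the largest falls lost after the correction. It gave 4.94, 4.68 and 6.24 against 2.05, 3.63 and 0.22 (log2 fold change -1.55, SE 0.48, adjusted p = 0.0331, then -1.13, adjusted p = 0.157).

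Among 12 genes of Schwann cells and glia, 3 fell and 0 after the correction, and the falls numbered 1, 3 and 1 without wild type female 1, 2 and 3, and 2, 5 and 2 without mutant female 1, 2 and 3. Fabp7, a fatty acid binding protein of immature Schwann cells, gave 23.1, 19.8 and 25.2 against 6.2, 19.3 and 3.6, with mutant female 2 near the wild type range (log2 fold change -1.50, SE 0.43, adjusted p = 0.0236, then -1.13, adjusted p = 0.121). The cadherin gene Cdh19 had a log2 fold change of -0.86 (SE 0.19, adjusted p = 0.00673). Of 19 endothelial genes 4 fell, near the 15.9% of all genes, and 2 did so after the correction. The falls numbered 2, 3 and 2 without wild type female 1, 2 and 3, and 3, 5 and 4 without mutant female 1, 2 and 3. Tek, the angiopoietin receptor, gave 11.3, 11.9 and 9.8 against 4.76, 6.45 and 3.11 (log2 fold change -1.17, SE 0.26, adjusted p = 0.00788, then -1.06, adjusted p = 0.0329). Calcrl, the receptor chain that Ramp3 joins, gave 20.9, 19.7 and 22.9 against 3.41, 10.1 and 14, with the lowest value in mutant female 1 (log2 fold change -1.36, SE 0.37, adjusted p = 0.0187, then -0.75, adjusted p = 0.223). Emcn had a log2 fold change of -0.60 (SE 0.19, adjusted p = 0.0393). The endothelial list had a median of -0.17 and summed levels of 261 to 296 in wild type and 175, 262 and 243 in mutant females.

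The small leucine-rich proteoglycans, matrix proteins that bind collagen, had a median of -0.80, with 6 of 11 called lower, against 15.9% of all genes. The falls numbered 2, 2 and 3 without wild type female 1, 2 and 3, and 4, 6 and 3 without mutant female 1, 2 and 3, and 3 with a fit on the female libraries alone. Ogn gave 62.6, 65.3 and 62.9 in wild type and 13.6, 21.2 and 24.3 in mutant females (log2 fold change -1.70, SE 0.23, adjusted p = 0.000925, then -0.99, adjusted p = 0.0231), and it alone stayed called after the correction. Lum gave 64.1, 69.4 and 64.5 against 19.5, 51.2 and 28.1 (log2 fold change -1.10, SE 0.32, adjusted p = 0.0263), Aspn 11.3, 12.6 and 11.6 against 7.85, 6.55 and 3.86 (log2 fold change -0.95, SE 0.27, adjusted p = 0.0222) and Kera 2.25, 2.49 and 2.57 against 0.622, 1.06 and 1.77 (log2 fold change -0.89, SE 0.23, adjusted p = 0.0139). This list had a median GC content of 40.7%, and its median became -0.15 after the correction. Of 23 genes of fibrillar and other matrix 1 fell, Postn (213, 309 and 208 to 109, 199 and 81.5, log2 fold change -0.98, SE 0.33, adjusted p = 0.0444, then -0.28, adjusted p = 0.627). Without mutant female 1 that list turned, from a median of -0.04 to 0.33, with 6 called higher and 0 lower.

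Mesenchymal and muscle lists showed few calls. Of 19 mesenchymal genes 2 fell, Agtr2 and Prrx1 (log2 fold change -0.41, SE 0.14, adjusted p = 0.0476, then -0.16, adjusted p = 0.458), and without mutant female 1 the count became 5 higher and 1 lower. The falls of this list numbered 1, 1 and 1 without wild type female 1, 2 and 3, and 1, 3 and 2 without mutant female 1, 2 and 3. Of 13 smooth muscle genes 1 rose, Smtn (14.4, 15.1 and 15.2 to 21.4, 23.3 and 23.1, log2 fold change 0.59, SE 0.12, adjusted p = 0.00467), and without mutant female 1 the count was 8 higher. All 13 were above the wild type libraries in mutant female 2 and 12 in mutant female 3, against 4 in mutant female 1. Of 26 skeletal muscle genes 1 fell, the giant filament gene Neb (14.7, 12.5 and 14.1 to 8.22, 8.44 and 8.35, log2 fold change -0.69, SE 0.19, adjusted p = 0.0199). Of 14 leukocyte genes 1 fell, Cx3cr1 (log2 fold change -0.67, SE 0.23, adjusted p = 0.0486), of 8 red blood cell genes 1 fell, the transferrin receptor Tfrc (log2 fold change -0.69, SE 0.21, adjusted p = 0.0278), and of 10 cartilage genes 1 rose, Sox9 (1.49, 2.14 and 2.19 to 3.19, 2.92 and 3.58, log2 fold change 0.62, SE 0.15, adjusted p = 0.0116). Of 5 adipose genes 1 rose, Cebpa (log2 fold change 0.43, SE 0.14, adjusted p = 0.0441).

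Of 24 tested genes of cholesterol synthesis, 0 rose and 7 fell, against 15.9% of all genes called lower. After the correction 2 fell, against 3.59% of all genes. Idi1 (ENSMUSG00000058258, chromosome 13, 8935537 to 8942487 in mm39), which makes an isoprenoid building block, gave 4.79, 4.72 and 4.8 in wild type and 0.639, 1.13 and 0.652 in mutant females (log2 fold change -2.03, SE 0.29, adjusted p = 0.00102, then -1.66, adjusted p = 0.00708). Acat2 gave 34.8, 36.1 and 29 against 18.47, 26.2 and 24.7 (log2 fold change -0.53, SE 0.13, adjusted p = 0.0115, then -0.52, adjusted p = 0.0439). Msmo1 and Sc5d, enzymes of later steps, had log2 fold changes of -0.56 (SE 0.15, adjusted p = 0.0156) and -0.51 (SE 0.09, adjusted p = 0.00301), then -0.34 (adjusted p = 0.193) and -0.20 (adjusted p = 0.206). The list median was -0.37, 0.05 and -0.32 in mutant females 1 to 3, and the falls numbered 3, 3 and 6 without wild type female 1, 2 and 3, and 4, 11 and 4 without mutant female 1, 2 and 3. They numbered 3 with FPKM as deposited and 10 after scaling to the sum.

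Of 24 proliferation genes 3 were called higher, about the share of all genes, and 9 lower, against 15.9% of all genes, with 0 and 4 after the correction. The falls numbered 8 or 9 and the rises 1 to 3 without any 1 female library. Top2a, the DNA topoisomerase of dividing cells, gave 79.6, 77.1 and 83.1 against 49.6, 53.6 and 51.6 (log2 fold change -0.63, SE 0.08, adjusted p = 0.000745, then -0.35, adjusted p = 0.0153). The mitotic kinase gene Bub1 gave 10, 9.49 and 10.5 against 4.91, 5.04 and 4.91 (log2 fold change -0.94, SE 0.10, adjusted p = 0.000411, then -0.52, adjusted p = 0.00651). Kif20b and Depdc1a had log2 fold changes of -0.83 (SE 0.13, adjusted p = 0.00131) and -1.67 (SE 0.32, adjusted p = 0.00365), then -0.33 (adjusted p = 0.0971) and -0.90 (adjusted p = 0.0477). Cenpk, a kinetochore gene, had a log2 fold change of -1.41 before the correction and was not called after it (-0.73, adjusted p = 0.056).

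Immediate early genes, which respond within minutes to many stimuli, had 6 of 15 called higher, against 12.1% of all genes, and 1 lower, with a median of 0.44, and 0 were called after the correction. The rises numbered 3, 8 and 4 without wild type female 1, 2 and 3, and 5, 6 and 5 without mutant female 1, 2 and 3, and 2 with FPKM as deposited and 2 after scaling to the sum. Junb gave 10.6, 11.6 and 10.6 against 26.5, 18.6 and 22.3 (log2 fold change 0.99, SE 0.18, adjusted p = 0.0032, then 0.66, adjusted p = 0.0554) and Jund 71.1, 68.9 and 61 against 129, 93.4 and 106 (log2 fold change 0.69, SE 0.12, adjusted p = 0.00257, then 0.27, adjusted p = 0.186). Klf4 and Zfp36 had log2 fold changes of 0.65 (SE 0.16, adjusted p = 0.0136) and 0.66 (SE 0.14, adjusted p = 0.00532). Their GC content ranged from 54.1% in Zfp36 to 67.1% in Jund.

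Signalling genes showed few calls after the correction. Of 28 Wnt genes 4 rose, near the 12.1% of all genes, and 1 fell, and 1 rose and 2 fell after the correction. The rises numbered 2, 3 and 3 without wild type female 1, 2 and 3, and 6, 8 and 2 without mutant female 1, 2 and 3. The Wnt inhibitor Notum gave 3.0, 2.6 and 2.19 against 4.37, 4.26 and 5.06 (log2 fold change 0.71, SE 0.11, adjusted p = 0.00146, then 0.43, adjusted p = 0.0449), and the ligands Wnt11 and Wnt6 had log2 fold changes of 0.52 (SE 0.15, adjusted p = 0.0216) and 0.49 (SE 0.11, adjusted p = 0.0088). Of 25 BMP and FGF genes 6 rose and 1 fell, and 2 rose after the correction. Here the rises numbered 4, 3 and 4 without wild type female 1, 2 and 3, and 9, 8 and 4 without mutant female 1, 2 and 3, and 1 with FPKM as deposited and 1 after scaling to the sum. Id1, a target of BMP signals, gave 63.6, 57.1 and 53.2 against 112, 81.1 and 123 (log2 fold change 0.84, SE 0.15, adjusted p = 0.00259, then 0.70, adjusted p = 0.0197). Etv5, a target of FGF signals, gave 6.86, 6.88 and 6.61 against 9.88, 8.48 and 9.54 (log2 fold change 0.43, SE 0.08, adjusted p = 0.00271, then 0.33, adjusted p = 0.0242), and Fgfr3 and Smad6 had log2 fold changes of 0.86 (SE 0.24, adjusted p = 0.0204) and 0.50 (SE 0.15, adjusted p = 0.0322). Of 14 hedgehog genes 2 rose, Sufu (log2 fold change 0.59, SE 0.12, adjusted p = 0.00445) and the co-receptor Boc (log2 fold change 0.37, SE 0.13, adjusted p = 0.0498), and 0 after the correction, with 1, 1 and 1 without wild type female 1, 2 and 3, and 4, 1 and 1 without mutant female 1, 2 and 3. Of 19 other imprinted genes 3 fell, Dcn (513, 552 and 502 to 220.4, 424 and 288, log2 fold change -0.80, SE 0.22, adjusted p = 0.0186), Gnas (log2 fold change -0.45, SE 0.12, adjusted p = 0.0204, then -0.71, adjusted p = 0.00676) and Slc38a4 (log2 fold change -0.39, SE 0.13, adjusted p = 0.0458). Those falls numbered 1, 0 and 1 without wild type female 1, 2 and 3, and 2, 6 and 3 without mutant female 1, 2 and 3.

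Core histone genes, whose products package DNA, lie high on the GC scale. Of 57 core histone genes, with a median GC content of 57.9%, 24 rose and 0 fell, against 12.1% and 15.9% of all genes, with a median of 0.44, and 8 rose after the correction with a median of 0.18. H2ac13 gave 12.4, 11.8 and 10.6 against 35.6, 51.3 and 52.9 (log2 fold change 1.94, SE 0.20, adjusted p = 0.000358, then 1.34, adjusted p = 0.00147), and H3c10 gave 11.2, 11.5 and 11 against 35.2, 49.4 and 45.5 (log2 fold change 1.89, SE 0.19, adjusted p = 0.000353, then 1.34, adjusted p = 0.00139). H2bc22 gave 25.6, 31.9 and 19.1 against 58.6, 59.8 and 74.9 (log2 fold change 1.34, SE 0.26, adjusted p = 0.00401) and H4c9 25.1, 57.1 and 27.1 against 112, 107 and 155 (log2 fold change 1.84, SE 0.49, adjusted p = 0.0174, then 1.73, adjusted p = 0.0519). Histone genes have near-identical copies, so the split of reads between them is uncertain. In mutant female 1, 32 of the 57 were above all wild type libraries, against 52 and 51 in mutant females 2 and 3. The count of rises was 8, 11 and 8 without wild type female 1, 2 and 3, and 32, 10 and 8 without mutant female 1, 2 and 3. It was 6 with FPKM as deposited and 6 after scaling to the sum.

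At the other end of the GC scale, of 336 zinc finger genes of the Zfp series (median GC content 44.4%), 30 rose and 146 fell, against 12.1% and 15.9% of all genes tested, and 7 rose and 45 fell after the correction. With FPKM as deposited 7 rose and 122 fell. Their median was -0.25 before and -0.09 after it. Zfp942 gave 3.6, 3.87 and 5.43 against 1.05, 1.02 and 0.828 (log2 fold change -1.70, SE 0.28, adjusted p = 0.00185, then -1.06, adjusted p = 0.0165) and Zfp758 3.75, 3.37 and 4.33 against 1.29, 0.852 and 0.649 (log2 fold change -1.61, SE 0.30, adjusted p = 0.00342, then -0.84, adjusted p = 0.0372). Zfp995 and Zfp808 had log2 fold changes of -1.59 (SE 0.25, adjusted p = 0.00154) and -1.59 (SE 0.21, adjusted p = 0.000805), and Zfp125 had a log2 fold change of -1.70 (SE 0.32, adjusted p = 0.00373), which was not called after the correction (-1.11, adjusted p = 0.0561). Many of these genes are close copies of their neighbours. Arhgap5, the gene of lowest GC content among the largest falls, gave 36.8, 36.6 and 42.9 against 12.9, 11.6 and 11.6 (log2 fold change -1.65, SE 0.22, adjusted p = 0.000745, then -0.81, adjusted p = 0.00245). Trim59, a ubiquitin ligase gene, had a log2 fold change of -1.41 (SE 0.33, adjusted p = 0.00924), then -0.78 (adjusted p = 0.0924).

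Of 83 cytosolic ribosomal protein genes 27 rose and 1 fell, against 12.1% and 15.9% of all genes, with a median of 0.27, and 11 rose after the correction. This balance depended on the scaling, with 3 rises and 1 fall with FPKM as deposited, 6 and 4 after scaling to the sum and 17 and 5 with cyclic loess. The rises numbered 13, 16 and 20 without wild type female 1, 2 and 3, and 20, 26 and 19 without mutant female 1, 2 and 3. Rps16 gave 42.6, 63.7 and 76.1 against 186, 174 and 237 (log2 fold change 1.73, SE 0.21, adjusted p = 0.000647, then 1.74, adjusted p = 0.00241), Rpl28 236, 240.1 and 244 against 506, 437 and 495 (log2 fold change 0.99, SE 0.11, adjusted p = 0.000516) and Rpl36 283, 283 and 292 against 581, 436 and 475 (log2 fold change 0.79, SE 0.12, adjusted p = 0.0011). Rps2 gave 269, 265 and 436 against 781, 590.4 and 379.8 with overlapping groups (log2 fold change 0.83, SE 0.26, adjusted p = 0.036). These genes have many processed copies, which makes their counting uncertain. Mrpl12, of the mitochondrial ribosome, gave 10.4, 11 and 13 against 35.8, 20.5 and 23.7 (log2 fold change 1.15, SE 0.17, adjusted p = 0.00108, then 0.98, adjusted p = 0.00576). Of 79 nuclear genes of oxidative phosphorylation 12 rose and 16 fell, near the 12.1% and 15.9% of all genes, and 5 and 5 after the correction. The balance was 0 and 7 with FPKM as deposited and 1 and 27 after scaling to the sum. The rises numbered 5, 6 and 9 without wild type female 1, 2 and 3, and 7, 7 and 14 without mutant female 1, 2 and 3, and the falls 9, 12 and 8 without wild type female 1, 2 and 3, and 17, 15 and 9 without mutant female 1, 2 and 3. Among the falls Atp5j2 gave 103, 103 and 109 against 62, 66.6 and 61.2 (log2 fold change -0.73, SE 0.07, adjusted p = 0.000352, then -0.73, adjusted p = 0.00118), Ndufb4 and Ndufb1 had log2 fold changes of -0.64 (SE 0.14, adjusted p = 0.00808) and -0.63 (SE 0.14, adjusted p = 0.00792), and Uqcrb had a log2 fold change of -0.56 (SE 0.08, adjusted p = 0.00123), then -0.12 (adjusted p = 0.529).

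Of 108 splicing factor genes 24 rose, against 12.1% of all genes, and 16 fell, near the 15.9% of all genes. After the correction 21 rose, against 4.25%, and 4 fell, near the 3.59% of all genes, with medians of 0.04 before and 0.13 after it. The rises of this group numbered 14, 9 and 12 without wild type female 1, 2 and 3, and 21, 19 and 15 without mutant female 1, 2 and 3. The balance was 1 rise and 9 falls with FPKM as deposited and 2 and 37 after scaling to the sum. Srsf4 gave 10.9, 12 and 12 against 17.2, 17.6 and 21.1 (log2 fold change 0.65, SE 0.10, adjusted p = 0.00114, then 0.52, adjusted p = 0.0135) and Rbm42 29.6, 30.5 and 30.9 against 47.2, 46.1 and 43.1 (log2 fold change 0.58, SE 0.06, adjusted p = 0.000387, then 0.27, adjusted p = 0.0171). Rbm38 and Rbm47 had log2 fold changes of 0.60 (SE 0.16, adjusted p = 0.0172) and 0.67 (SE 0.22, adjusted p = 0.0458), and neither was called after the correction. Cyp2f2, an oxidase gene on no list here, gave 0.707, 1.2 and 1.26 against 5.74, 1.71 and 2.27 and lost its call after it (log2 fold change 1.13, SE 0.36, adjusted p = 0.0356, then 1.03, adjusted p = 0.096).

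**Figure D5:**
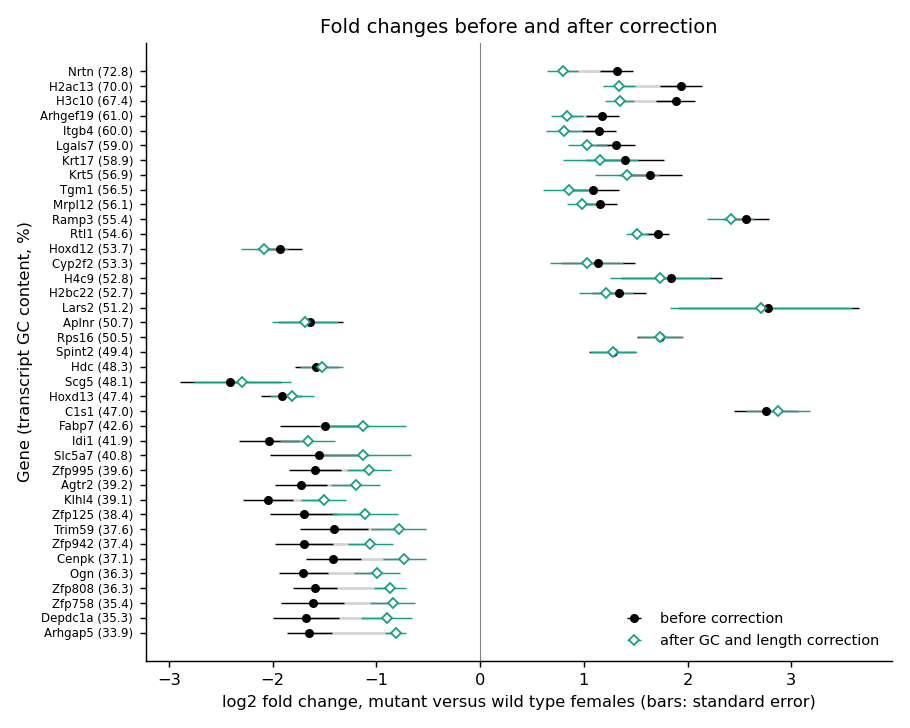
Log2 fold change between mutant and wild type females (x axis, bars are standard errors) before (filled circles) and after (open diamonds) the GC and length correction, for the genes with the largest changes that held and 10 that lost their call. Genes are ordered by GC content (in parentheses, percent), and the corrected values lie closest to the uncorrected ones near 50% GC and farthest from them at the ends, at -1.65 and -0.81 for Arhgap5 and 1.32 and 0.80 for Nrtn.

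The male libraries, which entered the choice of these genes only through the shared scaling, filter and estimate of spread, gave the same directions for most. In mutant against wild type males, 8.64% of genes were called higher and 11.6% lower, and 1.75% and 1.91% after the correction. Of the 1687 genes called higher in females, 94.3% had a positive value in males and 41.9% were called higher there. Of the 2208 called lower, 96.6% had a negative value and 54.8% were called lower. The share with the same direction over all genes tested was not computed. The median log2 fold change in males ran from -0.38 in the lowest GC decile to 0.24 in the highest. The part of this trend in the shared directions was not tested. After the correction, 92.3% of the 584 higher and 94.1% of the 493 lower genes had the same direction in males, and 24.0% and 25.2% were called. Of the 15 largest rises 13 were called higher in males before the correction and 9 after it. Of the 15 largest falls 14 were called lower before it and 5 after it. Before the correction, C1s1 among the rises had -0.71 in males and H2bc22 had 0.03. Ramp3 had 1.64, Rtl1 1.83, Hoxd13 -1.76 and Idi1 -1.19.

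The change in females was not shown to differ from that in males for any gene. In the limma test of the difference, 0 of 13904 genes (0%) were called, with 1225 at an unadjusted p under 0.05. The smallest p-values belonged to C1s1, Bod1l, Mstn, Mki67 and Bptf, with adjusted p = 0.0908, 0.183, 0.295, 0.295 and 0.295. Mstn, the muscle growth inhibitor myostatin, gave 1.44, 1.43 and 1.42 in wild type and 2.62, 2.3 and 2.61 in mutant females, against 3.35, 5.84 and 5.68 and 1.57, 2.58 and 1.31 in males, with log2 fold changes of 0.64 and -1.24. The proliferation antigen Mki67 had -0.43 in females and 0.30 in males, and the chromatin remodeller gene Bptf -0.17 and 0.36. Bod1l had -0.34 and 0.23.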

How the data were processed

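RNA was sequenced from female and male urogenital sinus, 3 libraries per genotype and sex. The authors deposited a table of FPKM for 56495 genes, per the file headers. The tools named are STAR 2.7.10a, Cufflinks 2.2.1, cutadapt 4.1 and bedtools 2.30.0, with the builds mm39 and mm10, per the submitters' processing notes. The annotation, masking and strand setting are not given in the sources used here. Positions are those of the table, mm39, with starts plus 1. All 36 mitochondrial genes were listed at 0.

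Libraries were scaled by the median, over the 11897 genes that reached 1 FPKM everywhere, of the ratio to the geometric mean of the 12 libraries (divisors 0.748 to 1.13). Genes with at least 1 FPKM in 3 libraries were fitted on log2(scaled FPKM + 0.5) with limma 3.58.1 in R 4.3.3. The fit had a mean for each of 4 groups of 3, an intensity trend and two-sided moderated tests. Its estimate of the spread of a gene was shared by the 4 groups, although mutant females had the largest median SD. The correction subtracted from each library a spline with 5 degrees of freedom in GC content and in length of the longest GENCODE M21 transcript. The method was tested on simulated data with the same spread in all groups, with and without a linear GC trend shared by mutant libraries. Those data did not hold the larger spread of mutant females, so they do not test the calls under it. Depth is known only in relative terms, so no counting interval is given.

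Named genes are the 15 largest rises and falls called before and after the correction whose groups do not overlap and whose higher mean is at least 2 scaled FPKM. Others are HoxD genes, up to 4 called members of each list, the 5 largest rises and falls lost after the correction, the 8 genes with the largest SD in mutant females and the 5 smallest p of the difference between sexes. Unnamed models, pseudogenes and short RNAs were left out, and some genes that these rules name are counted but not reported here. The comparison, lists and rules were chosen with earlier results of these data known. Alternatives were other pseudocounts, filters and scalings, library weights, a replicate block, corrections for GC or length alone, female libraries alone, and leaving out each female library. Same-numbered libraries deviated with correlations of 0.02, -0.07 and 0.01, and the main fit did not pair them by number. With 3 libraries per group these values cannot tell whether some libraries were prepared together.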

Additional observations from a re-analysis of the deposited data

How the results depend on the processing

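The counts of called genes depended on the settings. Against 1687 higher and 2208 lower genes, there were 231 and 1435 with FPKM as deposited, 320 and 4054 after scaling to the sum of FPKM, and 914 and 1446 with a fit on the female libraries alone. The GC and length correction left 584 and 493, and the GC correction alone 517 and 464. With the replicate block there were 1268 higher and 1859 lower, and with the replicate block and both corrections 224 and 182. Leaving out each female library in turn gave 940 to 1787 higher and 1502 to 2311 lower, and, as an alternative chosen after seeing the data, with the GC and length correction 166, 241 and 222 higher and 137, 189 and 160 lower without wild type female 1, 2 and 3, and 627, 894 and 338 higher and 484, 841 and 328 lower without mutant female 1, 2 and 3. The other settings tried kept both counts within 1.5 times.

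The difference between sexes had 0 called genes by limma, 8 with no filter, and 1 with a pseudocount of 0.1, with FPKM as deposited, with library weights, and with the correction and without mutant female 2. The difference of GC slopes of 0.39 became 0.44 with a pseudocount of 0.1 and 0.36 with 1.

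Of 112 called genes named, 56 kept the call and direction after the GC and length correction, 55 lost the call and Lnpk changed sign. Lnpk stood at 0.31 with the GC and length correction, with or without the replicate block, and at 0.30 with the GC correction. The other sign changes were in genes not called. Hoxd8 stood at -0.047 with FPKM as deposited, -0.17 after scaling to the sum, -0.061 with library weights, -0.16 with each GC correction and at -0.080 to 0.12 without 1 library. Hoxd9 stood at 0.0011 with a pseudocount of 1, 0.029 with cyclic loess scaling and -0.17 to 0.14 without 1 library. The kidney gene Wt1 stood at 0.0087 with cyclic loess scaling, 0.023 with the length correction and -0.20 to 0.13 without 1 library. Eno1b stood at 0.43 with library weights, and leaving out 1 library gave -1.79 to 0.33 for Rprl2 and -2.88 to 1.17 for Rprl3, positive without mutant female 3. The cause of these changes was not tested.

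Depth limits low genes most, and it is known only as a ratio between libraries. The annotation used for GC content and length is GENCODE M21, not the one behind the FPKM.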
